A study of Tupaia belangeri with 6 samples.

Results

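Semaphorins, plexins and neuropilins were followed through single nuclei of the hippocampus of aged tree shrews (TSs). The members are the genes whose symbol in the deposited feature list is that of a semaphorin of class 3 to 7, a plexin or a neuropilin, without a suffix for an antisense or intergenic transcript. The rule found 30 genes among 83605 features, of which 19 encode semaphorins, 9 plexins and 2 neuropilins. The rule uses no measured value. Together they held 64366 unique molecular identifiers (UMIs) in the nuclei kept, or 0.103% of the total, where each UMI stands for 1 captured RNA molecule.

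Semaphorins are guidance ligands that repel or attract growing axons and migrating cells. Those of class 3 are secreted and generally bind a neuropilin, which pairs with a plexin that carries the signal into the cell, while most semaphorins of class 4 to 7 stay on the membrane and bind plexins directly. In the mature hippocampus the family is known for its part in shaping synapses and mossy fibre projections, in the migration and maturation of oligodendrocyte progenitors, and in blood vessels.

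The study compared TSs with Alzheimer's-like pathology (ALP) that had arisen by natural senescence with healthy control TSs of the same age. Animals were assigned to a group by their performance in a pipeline maze, so that no transgene or treatment separates the groups. Hippocampal nuclei of 3 control and 3 ALP TSs gave 1 library per animal on the 10× Genomics 3′ platform, after perfusion with saline and freezing. The sex of the animal behind each library is not given in the sources used here.

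Of 37603 barcodes, 28233 nuclei were kept, 14387 from control and 13846 from ALP TSs, with a median depth of 1726 to 2187.5 UMIs per nucleus in the control libraries and 1502.5 to 1772 in the ALP libraries. They fell into 34 clusters, which were named from marker genes without the members. The classes were 8267 Oligo-like (oligodendrocytes), 3228 Astro-like (astrocytes), 2854 Pyra-like (pyramidal neurons), 2720 OPC-like (oligodendrocyte progenitors), 2447 InN-like (inhibitory neurons), 2333 Gran-like (dentate granule neurons), 1406 Micro-like (microglia), 496 Endo-like (endothelium), 173 Ependymal-like and 128 Mural-like nuclei. Other excitatory nuclei numbered 443, 2696 shallow nuclei had no class, and 1042 nuclei stayed unnamed. The study's upper limit of 2500 genes per nucleus was reached by 16.0% (ALP 3) to 46.4% (control 2) of the barcodes of a library. The nuclei kept held 21.1% (control 2) to 54.3% (ALP 3) of its UMIs. Without that limit the same steps gave 7352 Pyra-like, 4554 InN-like and 3378 Gran-like nuclei. Neuronal values here thus come from the neurons with fewer detected genes. The Endo-like cluster also carried 7 Mural markers, as many as Endo markers, so that vessel wall cells of both kinds share its values. Of the Mural-like nuclei, 103 came from a cluster with PDGFRB, RGS5, DCN, COL1A2 and LAMA2 as markers and COL3A1 among its leading genes. These include fibroblast genes, so that Mural-like does not tell mural cells and fibroblasts apart. The library of control 2 stood apart with 1614 kept nuclei, of which 176 were Oligo-like, 51 Gran-like and 35 Micro-like. Levels are given as CPM, the UMIs of a gene scaled to the usual common total in each library and class, and each gene is compared with itself across classes and libraries.

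Of the 30 members, 23 had at least 100 UMIs. SEMA4C, SEMA6B and PLXNB3 had 0 UMIs in the nuclei kept, which allows up to 3 UMIs for each at this depth. PLXNB2 had 3 UMIs, PLXNB1 31, SEMA3F 36 and SEMA3G 46. Counted on this annotation, the B-type plexins, receptors for class 4 semaphorins, were close to or below the limit of detection. Features named as antisense transcripts of PLXNB1, PLXNB2 and PLXNB3 held 33, 4 and 15 UMIs. Of the class 4 ligands, SEMA4A, SEMA4D and SEMA4F each had more than 1000 UMIs. Counts of different genes also depend on annotation and capture, so that they do not rank ligands against receptors.

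**Figure D1:**
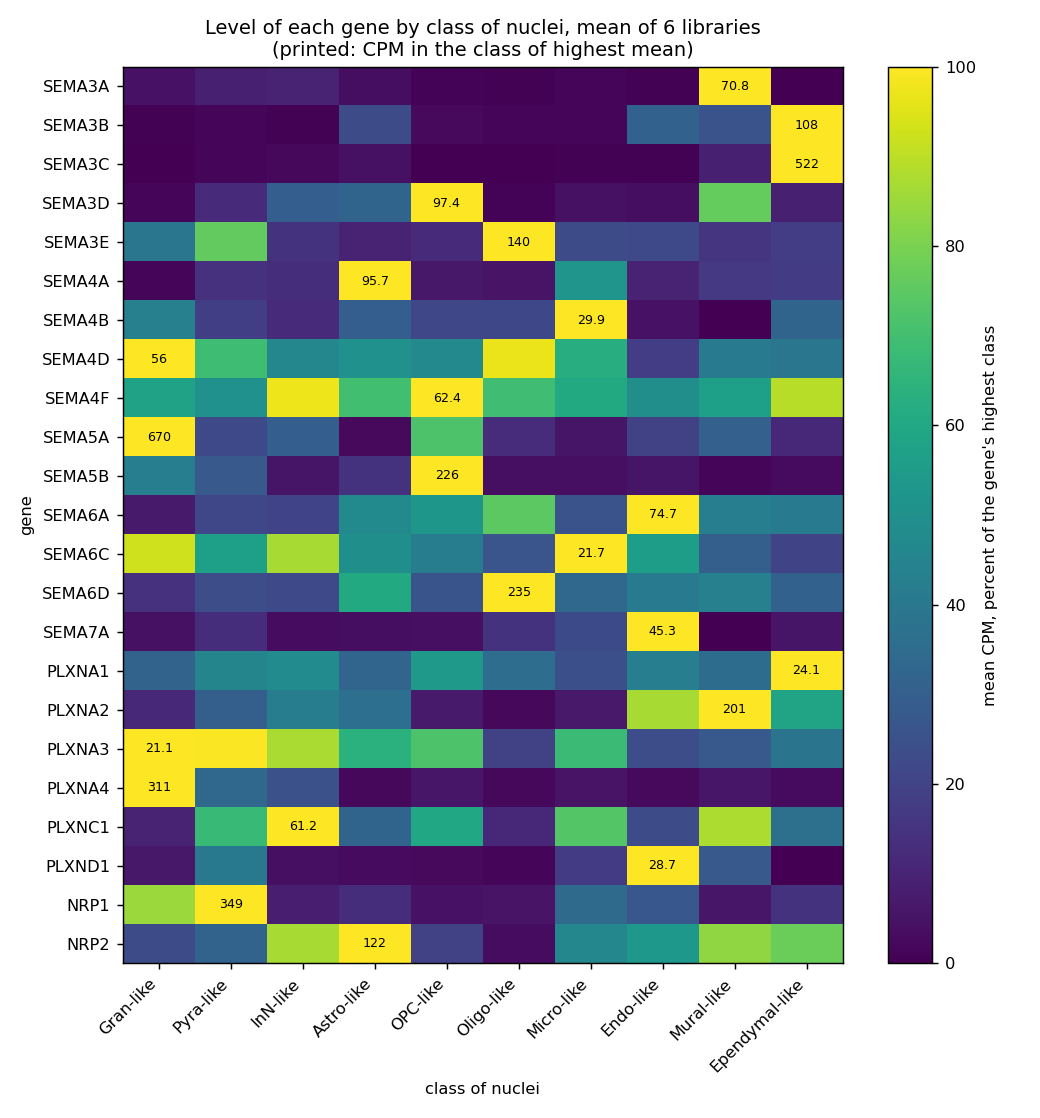
Mean level of each member with at least 100 UMIs (rows) in the 10 named classes (columns), as a percent of the gene's own highest class mean over 6 libraries, with that highest mean printed in CPM. SEMA3C peaks in Ependymal-like nuclei at 522 CPM, SEMA5A and PLXNA4 in Gran-like nuclei at 670 and 311 CPM, and SEMA4F is spread over all classes.

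Among the secreted class 3 ligands, several had their highest level in Ependymal-like, Endo-like or Mural-like nuclei. SEMA3C, best known for guiding axons and migrating cells in development, was highest in Ependymal-like nuclei, at 522 ± 148 CPM (SD, n = 6), from 300 to 715 CPM over the libraries. Every library was above every library of the next class, Mural-like nuclei, at 46.5 ± 43.7 CPM. SEMA3B, a ligand also known as a tumour suppressor, was highest in Ependymal-like nuclei too, at 108 ± 73.7 CPM on 38 UMIs, but its range there, 25.9 to 208 CPM, overlapped that in Endo-like nuclei at 33.5 ± 24.3 CPM. SEMA3A, the classical repellent of axons, reached 70.8 ± 67.9 CPM in Mural-like nuclei on only 22 UMIs, with 0 in the lowest library. The next class for SEMA3A, InN-like nuclei, had 6.94 ± 2.24 CPM on 71 UMIs. SEMA3F and SEMA3G, which act mainly through NRP2, were highest in Endo-like nuclei at 21.3 ± 13.8 and 36.7 ± 38.6 CPM, on 13 and 25 UMIs.

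The other pair of class 3 ligands marked opposite stages of the oligodendrocyte lineage. SEMA3D was highest in OPC-like nuclei, where it ran from 72.8 through a median of 92.1 to 134 CPM, and it fell to between 0 and 3.05 CPM in Oligo-like nuclei. The libraries of both classes do not overlap. Astro-like and InN-like nuclei had SEMA3D at 31.2 and 29.0 CPM, and Gran-like nuclei at 1.40 CPM. SEMA3E, a ligand that can bind PLXND1 without a neuropilin, was highest in Oligo-like nuclei, from 66.0 through 150 to 202 CPM, against 8.09 to 28.2 CPM in OPC-like nuclei. Pyra-like nuclei carried SEMA3E at 106 ± 54.3 CPM, and Oligo-like nuclei were above them in only 3 of 6 libraries, so that the order of these 2 classes is not settled by the spread.

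Membrane ligands of class 4 were spread over several classes. SEMA4A, which acts in immune cells and in the retina, was highest in Astro-like nuclei at 95.7 ± 17.7 CPM, followed by Micro-like nuclei at 50.1 ± 12 CPM, without overlap of their ranges, and was at 1.81 CPM in Gran-like nuclei. SEMA4D, an inhibitor of axon growth known from oligodendrocytes and T cells, stood at 56.0 ± 12.4 CPM in Gran-like and 54.3 ± 15.5 CPM in Oligo-like nuclei, a difference well inside the spread. SEMA4B was highest in Micro-like nuclei at 29.9 ± 30.7 CPM, with libraries from 0 to 84.5 CPM. SEMA4F, whose function is less well described, had the flattest profile among the better counted members, from 62.4 ± 13.6 CPM in OPC-like and 60.7 ± 4.74 CPM in InN-like nuclei down to 30.7 CPM in Endo-like nuclei.

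The class 5 ligands, which carry thrombospondin repeats, were both highest in Gran-like and OPC-like nuclei, in opposite order. SEMA5A, known for limiting synapse formation on granule neurons, ran from 557 through 679 to 811 CPM in Gran-like nuclei and from 404 through 495 to 555 CPM in OPC-like nuclei. The lowest Gran-like library thus lay above the highest OPC-like one. Astro-like nuclei had SEMA5A at only 17.1 ± 6.13 CPM. SEMA5B had 226 ± 38.3 CPM in OPC-like and 96.8 ± 16.0 CPM in Gran-like nuclei, again without overlap, and 9.26 ± 2.20 CPM in Oligo-like nuclei.

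In class 6, ligands that bind A-type plexins, SEMA6D was highest in Oligo-like nuclei at 235 ± 42.9 CPM and next in Astro-like nuclei at 142 ± 21.6 CPM. Oligo-like nuclei were above Astro-like nuclei in 6 of 6 libraries although the ranges over libraries touched. SEMA6A had 74.7 ± 49.3 CPM in Endo-like nuclei and a tighter 56.0 ± 5.26 CPM in Oligo-like nuclei, and 5.54 CPM in Gran-like nuclei. SEMA6C stood at 21.7 ± 13.3 CPM in Micro-like and 20.2 ± 5.90 CPM in Gran-like nuclei, down to 5.69 CPM in Oligo-like and 4.44 CPM in Ependymal-like nuclei. SEMA7A, the lipid-anchored member that signals through integrins and PLXNC1, was highest in Endo-like nuclei at 45.3 ± 17.1 CPM, and the libraries did not overlap with those of Micro-like nuclei at 10.2 ± 5.75 CPM.

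Among the receptors, PLXNA4, which carries class 3 and class 6 signals in neurons, followed the Gran-like nuclei. It ran there from 256 through 297 to 436 CPM, against 71.6 to 150 CPM in Pyra-like and 55.9 to 108 CPM in InN-like nuclei, and was at 7.09 CPM in Astro-like and 7.19 CPM in Oligo-like nuclei. Every Gran-like library was above every Pyra-like one, whereas Pyra-like and InN-like libraries overlapped. PLXNA2, a receptor for SEMA6A and SEMA5A, had another profile, with 201 ± 124 CPM in Mural-like and 174 ± 48.5 CPM in Endo-like nuclei, 84.8 CPM in InN-like nuclei and 4.42 CPM in Oligo-like nuclei. PLXND1, the vascular receptor of SEMA3E, was highest in Endo-like nuclei at 28.7 ± 24.5 CPM on 22 UMIs, followed by Pyra-like nuclei at 11.6 ± 4.19 CPM on 150 UMIs. PLXNC1, the receptor of SEMA7A, was highest in InN-like nuclei at 61.2 ± 16.2 CPM and reached only 5.83 ± 2.16 CPM in Gran-like nuclei. PLXNA3 had its highest class mean in Gran-like nuclei at 21.1 CPM, and PLXNA1 in Ependymal-like nuclei at 24.1 CPM on 8 UMIs.

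The neuropilins, co-receptors of the class 3 ligands and of vascular endothelial growth factor, split the neurons between them. NRP1 was highest in Pyra-like nuclei, from 260 through 304 to 599 CPM, and in Gran-like nuclei, from 127 through 288 to 479 CPM, which overlapped. InN-like nuclei had NRP1 at 29.8 ± 14.3 CPM and Micro-like nuclei at 121 ± 33.4 CPM. NRP2 was highest in Astro-like nuclei at 122 ± 28.4 CPM and in InN-like nuclei at 106 ± 39.5 CPM, which overlapped as well, and was at 3.93 ± 2.94 CPM in Oligo-like nuclei.

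**Figure D2:**
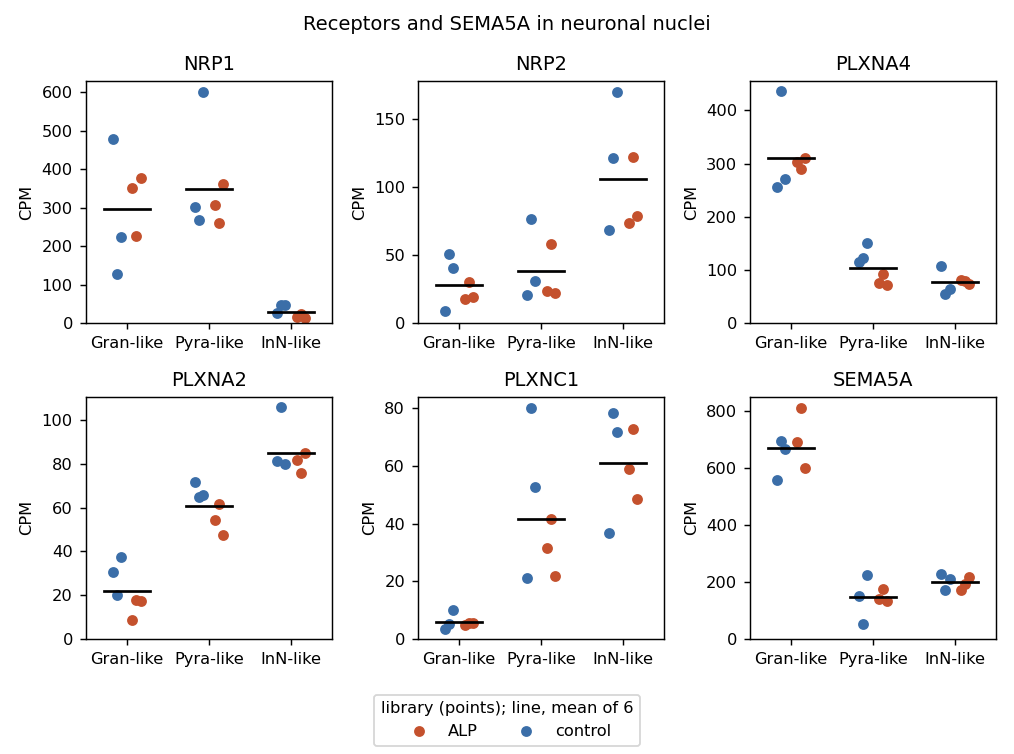
Levels of NRP1, NRP2, PLXNA4, PLXNA2, PLXNC1 and SEMA5A in CPM (y axes) in the Gran, Pyra and InN classes, with 1 point per library. A line marks the mean of the 6 libraries, control and ALP together, in each class. PLXNA4 and SEMA5A are highest in Gran-like nuclei, NRP1 is lowest and PLXNC1 highest on average in InN-like nuclei.

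Clusters inside a class also differed, given here as a description of nuclei pooled over libraries. Of the 5 Pyra-like clusters, the one with GRIK4, SV2B and HS3ST4 among its markers (424 nuclei) had NRP1 at 723 CPM and SEMA3E at 189 CPM. Another Pyra-like cluster (635 nuclei) had NRP1 at 207 CPM and SEMA3E at 13.4 CPM, and held most of the PLXND1 signal, 98 UMIs or 46.8 CPM, against at most 7.91 CPM in the others. SEMA3E and its receptor PLXND1 were thus high in different Pyra-like clusters. A further Pyra-like cluster with FOXP2 among its markers (504 nuclei) had NRP2 at 97.5 CPM and SEMA5A at 405 CPM, where the largest Pyra-like cluster (1058 nuclei) had 5.98 and 53.8 CPM.

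InN-like clusters varied in the same way. SEMA5A ranged from 59.9 CPM in the cluster with SST, PVALB and LHX6 among its markers (824 nuclei) to 322 CPM in a cluster with LHX6 and ADARB2 (571 nuclei). The cluster with VIP, CALB2 and ADARB2 (508 nuclei) had SEMA5B at 38.3 CPM, against 4.89 CPM in the SST and PVALB cluster, as well as SEMA3C at 42.3 CPM and SEMA3D at 61.1 CPM. Among the other excitatory nuclei, a small cluster of 47 nuclei had SEMA6A at 290 CPM on 33 UMIs. A single library gave 57.45% of these nuclei, so that the value rests largely on 1 animal.

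Differences between classes were tested within the same animals with edgeR's quasi-likelihood test on UMIs summed per library and class, with the library as a term. A member was called at a Benjamini-Hochberg adjusted p under 0.05 and a log2 fold change beyond 1, and 23 members were among the 13623 features tested. Between the neuronal classes (mean of the Gran, Pyra and InN classes) and the glial classes (mean of Astro-like, Oligo-like, OPC-like and Micro-like), 11 members were called, or 47.8%, against 34.4% of all features. 7 were higher in neurons, where 19.3% of all features were, and 4 were lower, where 15.1% were. The largest differences were those of PLXNA4, with a log2 fold change of 3.72 (SE 0.11, edgeR adjusted p = 1.30e-45), SEMA3A with 2.56 (SE 0.31) and NRP1 with 2.20 (SE 0.13). PLXNA4 was higher in each neuronal class than in each glial class on average, whereas the difference of NRP1 came from Gran-like and Pyra-like nuclei, with InN-like nuclei at 29.8 CPM below Micro-like ones at 121 CPM. That of SEMA3A rests on few molecules, with library values of 4.53 through 6.66 to 9.66 CPM in InN-like and 0 through 0.202 to 1.95 CPM in Oligo-like nuclei and as few as 2 UMIs in a glial class, so that its size depends on the prior count of the fit. SEMA5A (2.05), PLXND1 (1.75), PLXNA2 (1.71) and PLXNA3 (1.15) were also higher in neurons on average. SEMA5A in OPC-like nuclei (484 CPM) was above Pyra-like and InN-like nuclei, and PLXNA2 in Astro-like nuclei (73.1 CPM) above Pyra-like and Gran-like ones. The mean of PLXND1 in Micro-like nuclei (5.13 ± 6.21 CPM on 5 UMIs) was above those in Gran-like and InN-like ones. PLXND1 had as few as 2 UMIs in a glial class, so that the size of its difference also depends on the prior count.

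In the other direction SEMA3B had a log2 fold change of -1.69 (SE 0.41), SEMA6A of -1.53 (SE 0.16), SEMA4A of -1.25 (SE 0.17) and SEMA6D of -1.10 (SE 0.10), all called by edgeR, with the largest adjusted p of 0.000172 for SEMA3B. SEMA3B came from Astro-like nuclei, with 14.7 through 25.8 to 38.5 CPM, against 0 through 0.478 to 2.92 CPM in Gran-like nuclei. SEMA6A ran from 49.8 through 56.8 to 62.8 CPM in Oligo-like and from 0 through 5.08 to 11.2 CPM in Gran-like nuclei. SEMA4A ran from 67.7 through 94.4 to 121 CPM in Astro-like and from 0 through 1.77 to 4.04 CPM in Gran-like nuclei. For each of these genes the libraries of the classes named did not overlap. The difference of SEMA4A came from Astro-like and Micro-like nuclei. Oligo-like and OPC-like nuclei had SEMA4A at 5.17 and 6.01 CPM, below Pyra-like and InN-like nuclei at 13.6 and 12.7 CPM. Of 25 tested partners of semaphorin signalling, such as collapsin response mediators and kinases, 7 were higher and 4 lower in neurons. Of 31 tested members of other guidance families (netrins, slits, ephrins and their receptors), 21 were higher and 4 lower.

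From OPC-like to Oligo-like nuclei, 12 of 23 members differed, or 52.2%, against 32.6% of all features. SEMA3E (log2 fold change 3.38, SE 0.29), SEMA6D (2.10, SE 0.17), SEMA7A (1.81, SE 0.43) and SEMA4D (1.16, SE 0.18) were higher in Oligo-like nuclei, 4 members where 12.1% of all features were. 8 members were lower, where 20.5% of all features were. SEMA3D had a log2 fold change of -6.09 (SE 0.36, edgeR adjusted p = 1.45e-26), SEMA5B of -4.46 (SE 0.22), SEMA5A of -2.41, NRP2 of -2.22, PLXNC1 of -2.19, PLXNA4 of -1.71, PLXNA3 of -1.68 and PLXNA2 of -1.52. All 4 members higher in Oligo-like nuclei encode ligands, and of the 8 lower ones 5 encode receptors or co-receptors. Ligands are also the larger part of the family, 19 of the 30 members, and this split was not tested. Of the 25 partners 2 were higher and 10 lower, and of the 31 genes of other guidance families 4 were higher and 14 lower.

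**Figure D3:**
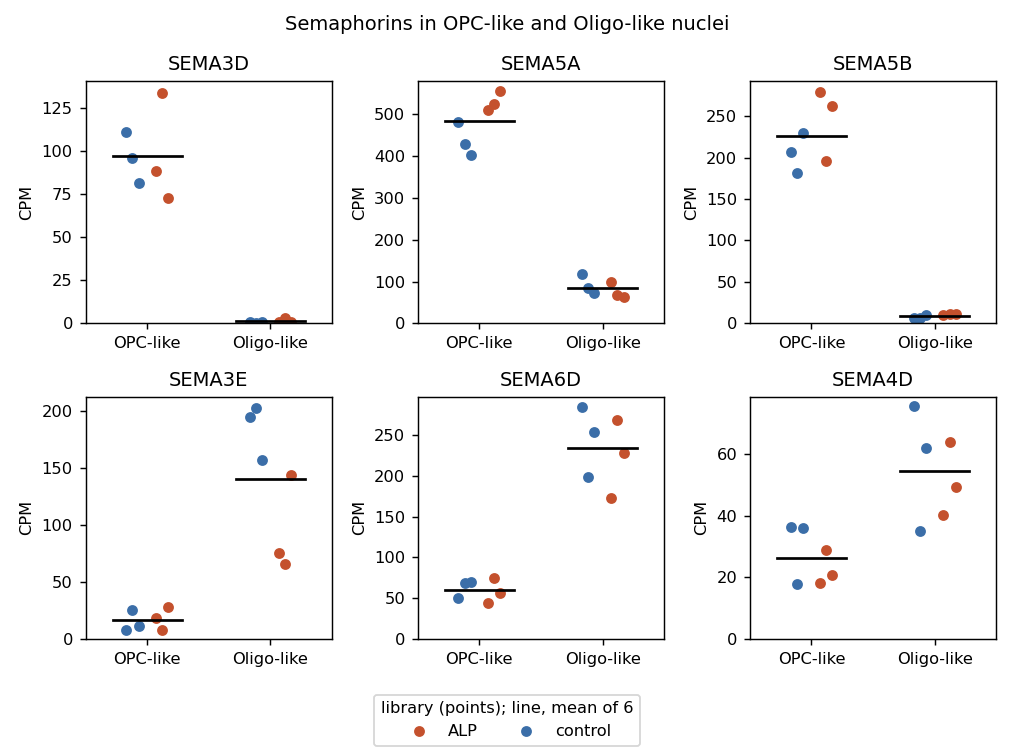
Levels of SEMA3D, SEMA5A, SEMA5B, SEMA3E, SEMA6D and SEMA4D in CPM (y axes) in OPC-like and Oligo-like nuclei, with 1 point per library and control and ALP libraries in different colours. The first 3 fall and the last 3 rise from OPC-like to Oligo-like nuclei, and SEMA3D drops from between 72.8 and 134 CPM to at most 3.05 CPM.

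Between the principal neurons, 11 members differed, or 47.8%, against 14.5% of all features. SEMA5A (log2 fold change 2.07, SE 0.17, edgeR adjusted p = 1.86e-18), PLXNA4 (1.49, SE 0.15) and SEMA4B (1.04, SE 0.31) were higher in Gran-like than in Pyra-like nuclei, 3 members where 5.27% of all features were higher. 8 members were lower, where 9.25% of all features were. These were PLXND1 (-2.79), PLXNC1 (-2.75), SEMA4A (-2.74), SEMA3D (-2.26), SEMA3C (-1.79), PLXNA2 (-1.50), SEMA7A (-1.48) and SEMA6A (-1.32). Few molecules stood behind some of them in Gran-like nuclei, with SEMA3D on 10 UMIs, PLXND1 on 13, SEMA4A on 15, SEMA3C on 16 and SEMA7A on 18. The difference of SEMA3D lay mostly in the control libraries. It was at 21.2 CPM in control and 2.66 CPM in ALP Pyra-like nuclei, against 1.43 and 1.37 CPM in Gran-like nuclei. Without the upper limit on genes per nucleus, SEMA4B, SEMA6A, SEMA7A and SEMA3C were no longer called, with log2 fold changes of 0.84, -0.42, -0.62 and -0.65. SEMA4B also fell below a log2 fold change of 1 without the count filter (0.99), with marked doublets removed (0.95), at resolution 1 (0.94) and with members among the variable genes (0.98), and SEMA6A in the last 2 of these (-0.76 and -0.90). Leaving out a library ended the call of SEMA4B without control 3 (log2 fold change just under 1) or ALP 2 (0.85) and that of SEMA3C without ALP 2 (-1.22). Of the 25 partners 1 was higher and 2 were lower, and of the 31 genes of other guidance families 4 were higher and 4 lower.

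Inhibitory neurons differed from the mean of Gran-like and Pyra-like nuclei in 13 members, or 56.5%, against 19.0% of all features. 6 were higher, where 9.67% of all features were, namely SEMA3D (log2 fold change 3.20, SE 0.30), PLXNC1 (2.05, SE 0.19), NRP2 (1.88, SE 0.17), SEMA3C (1.44), SEMA4A (1.24) and PLXNA2 (1.21). 7 were lower, where 9.36% were, led by NRP1 (-3.43, SE 0.20, edgeR adjusted p = 8.86e-27) and SEMA5B (-2.69, SE 0.20), followed by PLXND1 (-2.05), SEMA3E (-1.79), SEMA4B (-1.22), PLXNA4 (-1.13) and SEMA7A (-1.12). The neuropilins thus differed in opposite directions, NRP2 being higher and NRP1 lower in inhibitory neurons. Other differences rested on few UMIs, with SEMA3D on 10, SEMA4A on 15 and SEMA3C on 16 in Gran-like nuclei. PLXND1 had 11 UMIs and SEMA7A 17 in InN-like nuclei. The call of SEMA7A was lost without control 1 (edgeR adjusted p = 0.0862) or ALP 2 (0.0755) and that of SEMA3C without ALP 3 (log2 fold change 0.98). Without the upper limit on genes per nucleus, PLXNA4 (log2 fold change -0.86) and SEMA7A (-0.89) fell short of the fold threshold. Of the 25 partners 2 were higher and 0 lower, and of the 31 genes of other guidance families 4 were higher and 9 lower.

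Endo-like nuclei differed from the mean of the other named classes in 8 members, or 34.8%, against 28.9% of all features. PLXND1, SEMA7A, SEMA3B (log2 fold change 2.33, SE 0.47), PLXNA2 (1.66, SE 0.21) and SEMA6A (1.14, SE 0.30) were higher, 5 members where 16.6% of all features were. PLXND1 and SEMA7A had 0 UMIs in at least 1 class, so that the fitted difference depends on the prior count and their levels above are the better guide. SEMA4D (-2.24, SE 0.46), PLXNA3 (-1.97, SE 0.70) and PLXNA4 (-1.50, SE 0.50) were lower, 3 members where 12.3% were. With a library left out, the call of PLXNA3 was lost without control 1, control 3 (-1.49) or ALP 2 (-1.77). Without control 1 its SE was 278.8, so that this fit gave no usable size. PLXNA3 had only 3 UMIs in Endo-like nuclei. The call was also lost for PLXNA4 without control 1 (-1.46) or ALP 3 (-1.28), and for SEMA6A without ALP 1 (0.97) or ALP 3 (0.95). PLXNA4 (-0.57) and SEMA6A (0.86) were also lost without the upper limit on genes, and PLXNA4 (-0.88) with members among the variable genes. Of the 25 partners 7 were higher and 8 lower, and of the 31 genes of other guidance families 5 were higher and 9 lower.

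The comparison of ALP with control TSs used a separate edgeR fit for each class, with 3 libraries a group, a call at an adjusted p under 0.05 and a log2 fold change beyond 0.25. CPM from here on carry the scaling factors of that fit unless called unscaled. The p-values of these separate fits measure the spread between animals, each with 1 library. The F test of a difference in ALP effect between classes, given below, uses the sums of all classes at once with the library as a term. There the classes of 1 animal enter as separate values, so that its p-values do not measure that spread alone. A single member was called in a single class, NRP2 in Micro-like nuclei, 1 of 7 members tested there, where 0.916% of all features were called and 0.478% were called as higher. Entry of NRP2 into that test rested on the ALP libraries, as given below. In the other classes 0 members were called by edgeR. These were 0 of 17 in Astro-like (0.187% of all features called), 0 of 16 in Oligo-like (5.01%), 0 of 14 in OPC-like (1.61%), 0 of 13 in Gran-like (0.989%), 0 of 19 in InN-like (0.067%) and 0 of 21 in Pyra-like nuclei (0%). The same holds for 0 of 8 in shallow, 0 of 2 in Endo-like and 0 of 1 in Ependymal-like nuclei, classes in which 0% of all features were called. No member passed the filter on low counts in Mural-like nuclei. At an unadjusted p under 0.05 stood 1 member each in Astro-like and OPC-like nuclei, 2 in Gran-like, 3 in Oligo-like, 3 in InN-like and 4 in Pyra-like nuclei. The shares of all features at that level were 17.0%, 15.4%, 16.3%, 21.9%, 19.6% and 16.9%, in the same order. DESeq2 called 1 member, SEMA3E in InN-like nuclei, and 0 in each of the other classes. The shares of all features called by DESeq2 are not given here.

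NRP2, the co-receptor of SEMA3F, was higher in Micro-like nuclei of ALP TSs. It stood at 13.7, 41.2 and 38.4 CPM in control 1, 2 and 3 and at 73.4, 118 and 113 CPM in ALP 1, 2 and 3. Every ALP library was above every control library, and control 1 was the lowest. The means were 31.1 ± 15.1 and 102 ± 24.4 CPM (SD, 3 libraries each), and the log2 fold change was 2.06 (SE 0.44, edgeR adjusted p = 0.0368). Behind these values stand 21 UMIs in control and 68 in ALP libraries. By library these were 8, 2 and 11 in control 1, 2 and 3 and 11, 38 and 19 in ALP 1, 2 and 3. The filter on low counts applied the minimum count of 10 as a level in CPM, set at the median total of the libraries. All 3 ALP libraries reached that level, and none of the control libraries did. NRP2 thus entered the test on the strength of the ALP libraries, where it was higher. The share of 1 in 7 tested members is therefore not independent of the group difference. Nuclei with an NRP2 UMI numbered 6 of 491, 2 of 35 and 11 of 228 in the control libraries and 10 of 171, 32 of 301 and 15 of 180 in the ALP libraries. Median UMIs per Micro-like nucleus were 1075 to 1327 in control and 809 to 973 in ALP libraries. The part of depth in the NRP2 values was not tested. In Oligo-like nuclei, the class with the lowest NRP2, unscaled levels ran from 1.67 to 9.71 CPM.

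The call of NRP2 in Micro-like nuclei was not stable. It was lost with DESeq2 (adjusted p = 0.101), with the removal of marked doublets (edgeR adjusted p = 0.053), without the upper limit on genes (0.122), and without control 1 (0.208), control 3 (0.0543), ALP 1 (0.0681), ALP 2 (0.163) or ALP 3 (0.155), while the log2 fold change stayed between 1.39 and 2.61. Of the classes richest in NRP2, the 8 Astro markers summed to between 233 and 400 unscaled CPM in control and between 168 and 569 in ALP Micro-like nuclei, and the 10 InN markers to between 72.2 and 167 and between 65.3 and 84.0, both of which overlap. The 6 Ependymal markers summed to between 16.7 and 66.4 unscaled CPM in control and between 67.2 and 106 in ALP libraries, the 7 Oligo markers to between 1813 and 2035 and between 1564 and 1612, and the 10 Micro markers to between 3487 and 5089 and between 5513 and 6141. These 3 lists do not overlap between the groups, and their part in the result was not tested. A cluster of 207 nuclei with microglial markers that stayed unnamed for its share of marked doublets had NRP2 at 6.49, 27.5 and 15.4 unscaled CPM in control 1, 2 and 3 and at 33.4, 55.7 and 35.3 in ALP 1, 2 and 3, on 23 UMIs. Adding it to the Micro-like nuclei ended the call (edgeR adjusted p = 0.0622). In Astro-like nuclei NRP2 was at 110 ± 30.3 CPM in control and 145 ± 27.1 CPM in ALP libraries, which overlapped (log2 fold change 0.44, SE 0.23, edgeR adjusted p = 0.356).

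**Figure D4:**
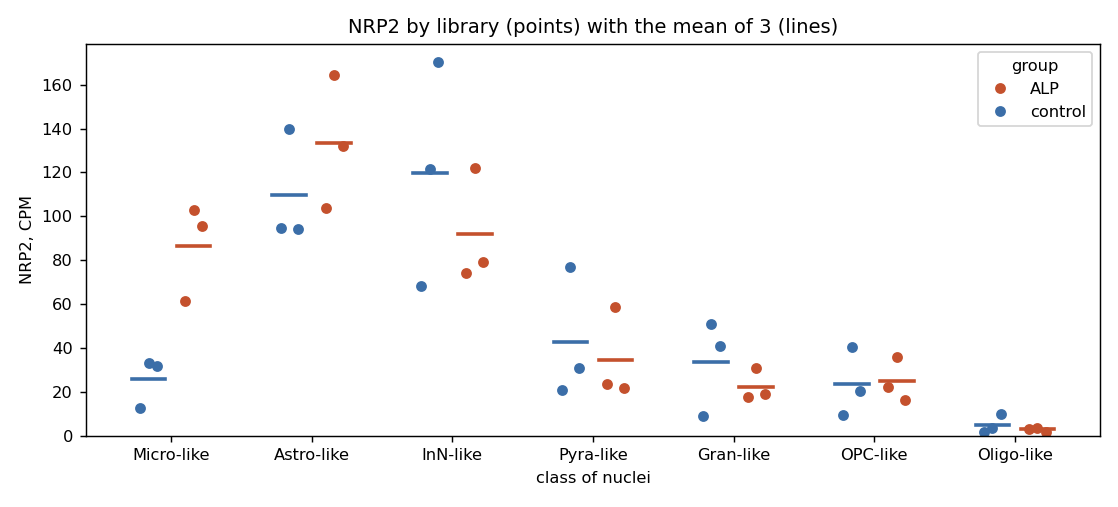
NRP2 in unscaled CPM (y axes) per library in 7 classes, with control and ALP libraries in different colours and a line at each group mean. In Micro-like nuclei the ALP libraries lie at 61.6, 103 and 95.4 and the control libraries at 12.5, 33.4 and 31.8, while the groups overlap in Astro-like nuclei.

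SEMA4F did not pass the test in any class, yet its values leaned the same way in many of them. In the sum over all nuclei of a library it stood at 29.9, 42.1 and 34.8 CPM in control 1, 2 and 3 and at 58.0, 51.7 and 54.8 CPM in ALP 1, 2 and 3. The groups do not overlap. The means were 35.6 ± 6.12 and 54.8 ± 3.14 CPM, a log2 fold change of 0.63 (SE 0.17, edgeR adjusted p = 0.0852), and 0 of 23 members were called there, where 0% of all features were. In such a sum, more nuclei of a class with the gene and more RNA per nucleus cannot be told apart. DESeq2 called SEMA4F in this sum (adjusted p = 0.0348), the only member it called there. The 0% is the share for edgeR. The share of all features called by DESeq2 is not given here, so that this call has no background to be read against.

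Within classes, groups that did not overlap together with an unadjusted p under 0.05 were found for SEMA4F in Oligo-like, Gran-like, Astro-like and Pyra-like nuclei, where 15.3%, 12.3%, 13.1% and 13.4% of all features met both conditions, and in the sum over all nuclei, where 18.8% did. Median UMIs per nucleus also did not overlap between the groups in the classes named. In control and ALP libraries they were 1421 to 1669 and 1175 to 1326 (Oligo-like), and 3312 to 4043 and 2452 to 2683.5 (Gran-like). For Astro-like nuclei they were 1998 to 2260 and 1552 to 1744, and for Pyra-like nuclei 3262 to 3768.5 and 3972 to 5460.5. The part of depth was not tested. In Oligo-like nuclei SEMA4F stood at 23.6, 39.6 and 35.6 CPM in control 1, 2 and 3 and at 63.9, 57.6 and 47.8 CPM in ALP 1, 2 and 3, a log2 fold change of 0.87 (SE 0.25, edgeR adjusted p = 0.0678). In Gran-like nuclei the values were 26.7, 26.1 and 29.6 CPM in control and 50.3, 45.2 and 50.8 CPM in ALP libraries (0.81, SE 0.24, edgeR adjusted p = 0.111), with only 51 nuclei in control 2. All ALP libraries were higher than all control libraries in both classes. Inside the Oligo-like nuclei, over whose clusters the groups are unevenly spread, mean unscaled SEMA4F was 37.8 in control and 38.7 CPM in ALP libraries in the largest cluster, and the groups did not overlap in 1 of 5 clusters, where it was 17.0 and 57.7 CPM.

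Astro-like nuclei had SEMA4F at 36.0, 38.6 and 29.8 CPM in control and 62.3, 48.5 and 60.3 CPM in ALP libraries (log2 fold change 0.71, SE 0.23, edgeR adjusted p = 0.154). Pyra-like nuclei had 25.4, 21.3 and 28.2 CPM in control and 44.2, 40.2 and 37.4 CPM in ALP libraries (0.69, SE 0.22, edgeR adjusted p = 0.170). InN-like nuclei, where the level was highest among neurons, had SEMA4F at 55.5 ± 2.54 and 70.3 ± 5.49 CPM, without overlap but with a smaller log2 fold change of 0.34 (SE 0.15, edgeR adjusted p = 0.258). OPC-like nuclei had 58.4 ± 11.1 and 74.8 ± 17.0 CPM, which overlapped. A difference between classes in the ALP effect on SEMA4F was not detected (F test over 10 classes in edgeR, adjusted p = 0.856). Across the alternatives run, the log2 fold change of SEMA4F stayed positive in each of the 4 classes and in the sum, from 0.53 to 1.06. These were picked because their groups did not overlap, so that a stable sign was largely given by that choice.

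**Figure D5:**
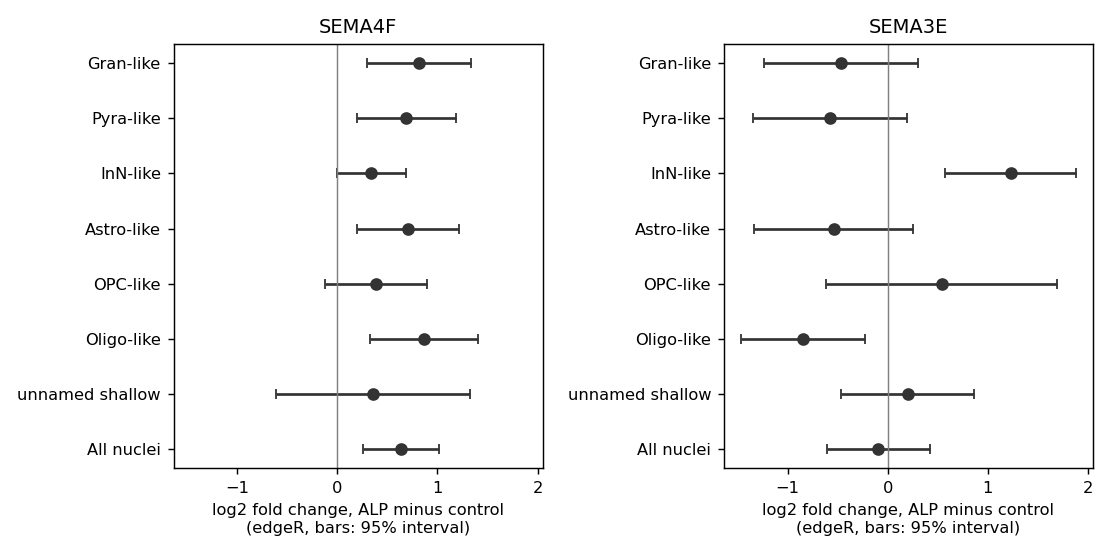
Log2 fold change of ALP against control (x axes) for SEMA4F and SEMA3E in each class in which they were tested, as points with 95% confidence intervals from edgeR. SEMA4F lies above 0 in the classes shown, with intervals that overlap, and SEMA3E lies at 1.23 in InN-like and at -0.85 in Oligo-like nuclei.

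SEMA3E was the only member whose ALP effect differed between classes by the F test of edgeR over 10 classes (F = 4.19, adjusted p = 0.0258), where 1.04% of 16522 features passed. In InN-like nuclei it stood at 12.7, 8.42 and 17.0 CPM in control 1, 2 and 3 and at 26.6, 37.3 and 27.3 CPM in ALP 1, 2 and 3. The ALP libraries were all higher, with means of 30.4 ± 5.95 against 12.7 ± 4.3 CPM (log2 fold change 1.23, SE 0.29, edgeR adjusted p = 0.0634). In Oligo-like nuclei the values were 191, 209 and 153 CPM in control and 80.6, 67.4 and 154 CPM in ALP libraries, so that ALP 3 overlapped control 3 (log2 fold change -0.85, SE 0.28, edgeR adjusted p = 0.110). Neither class passed its own test. Gran-like, Pyra-like and Astro-like nuclei had log2 fold changes of -0.47, -0.58 and -0.54 and OPC-like nuclei of 0.54, each with an interval that holds 0.

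The difference of SEMA3E between classes depended on the libraries and on the filter. The adjusted p of the edgeR F test rose to 0.229 without ALP 1, 0.107 without ALP 2 and 0.0809 without ALP 3, and to 0.575 without the upper limit on genes, where the log2 fold change in InN-like nuclei was 0.36. Inside the InN-like nuclei, mean unscaled SEMA3E went from 25.5 to 71.0 CPM in the cluster with LHX6 and ADARB2, from 9.73 to 22.6 CPM in the SST and PVALB cluster, from 12.6 to 22.8 CPM in the VIP and CALB2 cluster and from 7.47 to 6.35 CPM in the remaining one. In all 5 Oligo-like clusters the ALP mean of SEMA3E was below the control mean, from 63.1 against 139 CPM in the cluster with the lowest to 149 against 223 CPM in that with the highest level. The groups overlapped in some of them, for example with control 3 at 37.6 and ALP 3 at 160 unscaled CPM in a cluster of 1437 nuclei. Clusters divide the nuclei of the same animals and are not further replicates. Oligo-like nuclei of both groups were unevenly spread over these clusters, for example 1540 control and 612 ALP nuclei in one and 309 and 1638 in another. In InN-like nuclei the 7 Oligo markers summed to between 76.2 and 224 unscaled CPM in control and between 115 and 150 in ALP libraries, and the 10 Pyra markers to between 147 and 225 and between 156 and 181, both of which overlap. The 7 Excitatory markers summed to between 77.3 and 88.2 and between 54.4 and 66.3. For the 6 Ependymal markers the sums were 68.2 to 101 and 58.9 to 63. The last 2 lists do not overlap between the groups, and the part of other classes in the SEMA3E values was not tested.

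InN-like nuclei held 2 other members whose groups did not overlap at an unadjusted p under 0.05, which makes 3 of 19 members, where 15.8% of all features met both conditions. NRP1 stood at 26.1, 48.2 and 45.6 CPM in control 1, 2 and 3 and at 18.9, 25.6 and 16.6 CPM in ALP 1, 2 and 3, with control 1 just above ALP 2 (log2 fold change -0.95, SE 0.29, edgeR adjusted p = 0.109). The ALP mean of NRP1 was the lower one in each of the 4 InN-like clusters. In some of these the groups overlapped, for example with control 1 at 10.8 and ALP 2 at 61.6 unscaled CPM in a cluster of 544 nuclei. SEMA5B stood at 21.8, 15.3 and 14.0 CPM in control and at 8.88, 6.29 and 9.11 CPM in ALP libraries (-1.09, SE 0.33, edgeR adjusted p = 0.109). Without the upper limit on genes the log2 fold changes were -0.22 for NRP1 and -0.20 for SEMA5B.

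In Pyra-like nuclei SEMA5B leaned the other way, with 52.2, 36.0 and 61.3 CPM in control 1, 2 and 3 and 98.4, 64.3 and 86.5 CPM in ALP 1, 2 and 3 (log2 fold change 0.72, SE 0.25, edgeR adjusted p = 0.191). Without the upper limit on genes the log2 fold change of SEMA5B was 0.36. The groups were also unevenly spread over the Pyra-like clusters, with 240 control and 818 ALP nuclei in the largest, where mean unscaled SEMA5B was 86.0 and 90.3 CPM, and 288 and 347 in the cluster lowest in SEMA5B, where it was 19.7 and 16.1 CPM. The difference between classes did not pass the test for SEMA5B (edgeR F test, adjusted p = 0.0528), nor for NRP2 (0.0627). PLXNA4 in Pyra-like nuclei stood at 106, 118 and 143 CPM in control and at 84.4, 94.8 and 86.5 CPM in ALP libraries (-0.46, SE 0.18, edgeR adjusted p = 0.240). All 3 ALP libraries were below the control libraries, but without the upper limit on genes the log2 fold change of PLXNA4 was -0.06. In all, 3 of 21 members in Pyra-like nuclei met both conditions, where 13.4% of all features did.

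PLXNA2 in Gran-like nuclei stood at 31.7, 20.9 and 38.6 CPM in control 1, 2 and 3 and at 9.52, 18.4 and 19.0 CPM in ALP 1, 2 and 3, with control 2 resting on 4 UMIs (log2 fold change -1.02, SE 0.34, edgeR adjusted p = 0.165). SEMA5A in OPC-like nuclei stood at 487, 465 and 429 CPM in control and at 551, 558 and 604 CPM in ALP libraries (0.31, SE 0.13, edgeR adjusted p = 0.284). The OPC-like groups did not overlap, and 1 of 14 members met both conditions there, where 11.2% of all features did. In Micro-like nuclei NRP2 alone did, where 8.56% of all features did.

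Among the signalling partners and other guidance families, 2 genes were called, both in Oligo-like nuclei. EFNA1, a ligand of Eph receptors, went from 38.9 to 83.0 CPM (log2 fold change 1.15, SE 0.24, edgeR adjusted p = 0.0271), and CDK5, a kinase that phosphorylates collapsin response mediators, from 92.7 to 169 CPM (0.99, SE 0.25, edgeR adjusted p = 0.0469). These are 1 of 24 tested genes of other guidance families and 1 of 22 tested partners, where 5.01% of all features were called. Uncalled values of similar size stood in other classes, with a log2 fold change of 0.94 for CDK5 in Pyra-like nuclei (SE 0.23, edgeR adjusted p = 0.118) and of 1.11 for EFNA1 in OPC-like nuclei (SE 0.34, edgeR adjusted p = 0.125).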

How the data were processed

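For 6 hippocampus libraries, the authors deposited raw counts (UMIs of each feature in each nucleus) made with Cell Ranger on the TreeshrewDB genome. The processing notes name Cell Ranger 3.1.0 and the matrix headers 6.1.2. The genome build and the use of strand are not given in the sources used here. Libraries are the replicates, 1 animal each, and at most 0.465% of barcodes were shared between libraries.

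By the limits of the study's methods, a nucleus needed 200 to 2500 genes and no more than 5% mitochondrial UMIs. Log values at 10000 UMIs per nucleus were clustered with scanpy 1.11.5 and leidenalg 0.10.2 (Python 3.11.15; 2000 variable genes without the members, 30 principal components, 20 neighbours, resolution 2). A class name needed at least 3 markers found in at least 3% of nuclei at a fold of at least 1.5. Clusters with at least 15% marked doublets, or with more markers of another class, stayed unnamed. These thresholds were set after seeing the data, and names rebuilt in this way may differ from the study's. Doublets were scored at an assumed 0.8% per 1000 barcodes and stayed in unless stated.

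Sums of UMIs over the nuclei of a class in a library (10 nuclei or more) entered edgeR 4.0.16 under R 4.3.3 (quasi-likelihood, TMM, minimum count 10, Benjamini-Hochberg over all features), after tests on simulated data. DESeq2 1.42.0, upper-quartile normalization, no count filter, a replicate block, each library left out, no upper limit on genes, doublets removed, resolution 1 and members among the variable genes were alternatives. The members, gene lists and tests were chosen with earlier results of these data known. Values in every library are given for members called between ALP and control, for members whose groups did not overlap at an unadjusted p under 0.05, and, as the lowest, median and highest library of a class, for the 3 largest differences in each direction between neurons and glia. UMI counts cover counting error only.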

Additional observations from a re-analysis of the deposited data

Results flagged for a closer look

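The ALP effect on SEMA3E differed between the 10 classes tested (edgeR F test, adjusted p = 0.0258), with a log2 fold change of 1.23 in InN-like and -0.85 in Oligo-like nuclei. The F test covered all 10 classes together, and the difference between InN-like and Oligo-like nuclei was not tested by itself. Sparse classes were among the 10, such as Mural-like nuclei with SEMA3E on 10 UMIs. Neither InN-like nor Oligo-like nuclei passed their own test.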

How the results depend on the processing

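The number of members called in Micro-like nuclei, 1 (NRP2), went to 0 with DESeq2, the replicate block, no upper limit on genes, marked doublets removed, resolution 1 and the unnamed microglial cluster added, the last chosen after seeing the data, and to between 0 and 1 with each library left out. With the replicate block NRP2 had a log2 fold change of 1.85 (edgeR adjusted p = 0.0802), and the block changed no other call of members. In no class did all 3 same-numbered pairs deviate together at a correlation over 0.1, nor did every library correlate best with its own number, so the numbers were not taken as pairs. Counts of 0 became 2 in Oligo-like and InN-like nuclei, 1 in Pyra-like nuclei and 1 in all nuclei summed without the count filter, 1 in InN-like nuclei and 1 in all nuclei with DESeq2, and 1 in Gran-like nuclei without the upper limit. With each library left out they lay between 0 and 1 in Oligo-like, InN-like and all nuclei, where those of 1 came without control 2 (SEMA4F) in Oligo-like and all nuclei and without control 1 (NRP1) in InN-like nuclei. The shares of all features called under these alternatives are not given here, so that the added calls cannot be set apart from a general shift in calling. Members differing in Endo-like nuclei moved from 8 to between 5 and 11 with each library left out, 5 without control 1. Members whose ALP effect differed between classes, 1 as reported, were 3 without the count filter, 0 without the upper limit or at resolution 1, and 0 to 4 with each library left out, with 0 without ALP 1, ALP 2 or ALP 3 and 4 without control 1. The cause was not tested. No direction reversed, and of the values of single genes 840 kept their side of the threshold, 39 lost it and 10 gained it. The 840 include values that were not called to begin with, so that they do not measure how stable the sizes were. PLXNA4 in Pyra-like nuclei, for example, is among them with a log2 fold change of -0.46 as reported and -0.06 without the upper limit. Depth limits Mural-like, Endo-like and Ependymal-like nuclei, where at most 2 members were tested.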

Other observations

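Beside the members, the annotation lists 74 features named as antisense transcripts of members, with 6799 UMIs in the nuclei kept. Since the use of strand is not known, their reads cannot be told apart from those of the genes they overlap. Summed over all nuclei of a library they stood at 126, 123 and 165 unscaled CPM in control 1, 2 and 3 and at 82.3, 83.9 and 69.5 in ALP 1, 2 and 3, where the members themselves stood at 1029 ± 86.7 and 994 ± 45.7 CPM (SD, n = 3 each). Of the 13 antisense-named features with at least 100 UMIs, 13 had the lower mean in ALP libraries and 10, or 76.9%, lay below the control libraries without overlap. Of the 4658 other antisense-named features with at least 100 UMIs, 82.8% had the lower mean and 39.2% lay below without overlap, so that most such features shared the direction. For PLXNA4 the antisense-named features summed to 39.8 ± 4.3 CPM in control and 22.8 ± 6.14 CPM in ALP libraries, and for NRP1 to 19.1 ± 3.49 and 8.02 ± 1.47 CPM.

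A group of 14 intergenic features named after SEMA6D held 6675 UMIs, about as many as SEMA6D itself with 6535. Their summed level in all nuclei was 95 ± 12.1 CPM in control and 114 ± 11.7 CPM in ALP libraries, which overlapped. By class they were highest in OPC-like nuclei at 204 ± 39.0 CPM and Pyra-like nuclei at 195 ± 55.7 CPM and stood at 5.80 ± 1.33 CPM in Oligo-like nuclei (n = 6), the class in which SEMA6D was highest.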
